A study of Rattus norvegicus with 12 samples.

Results

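Trib3, Chac1, Ddit3, Atf5, Asns and Creb3l1 belong to the stress responses in which the transcription factors ATF4 and CHOP act. Only the 1734 probes in the deposited tables of rapamycin-modulated genes have names here, so any unlisted probe of these genes was not seen. Each gene had 1 named probe, giving 6 of the 22523 probes on the array. Rapamycin lowered the signal of all 6 in HO15.19 fibroblasts, which lack c-myc, and of 5 in TGR-1 fibroblasts, which carry it. The exception in TGR-1 cells was Chac1. A probe was taken as a member when its gene symbol in either deposited table of rapamycin-modulated genes matched 1 of the 6 names. Because these tables list probes the authors found changed by rapamycin on the same arrays, the rapamycin changes of the members were in part known from their selection. Trib3, Ddit3, Atf5, Asns and Creb3l1 were in both tables and Chac1 was in the HO15.19 table alone.

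ATF4 is translated preferentially when kinases that sense amino acid shortage, endoplasmic reticulum (ER) stress, heme shortage or viral RNA phosphorylate the initiation factor eIF2alpha, and it then switches on genes of amino acid uptake, amino acid synthesis and tRNA charging. In mouse and human cells the kinase complex mTORC1, the target of rapamycin, also raises ATF4 protein. Ddit3 encodes CHOP, a factor of the C/EBP family that ATF4 induces and that acts with it under prolonged stress. Atf5 encodes a transcription factor related to ATF4. Creb3l1 encodes OASIS, a transcription factor held in the ER membrane, released by cleavage and known for collagen and secretory genes in bone-forming cells. Trib3 encodes a pseudokinase that is induced by ATF4 and CHOP and restrains them. Chac1 encodes an enzyme that degrades glutathione, and Asns encodes asparagine synthetase.

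Transcripts were quantified on 12 Illumina RatRef-12 arrays, with 3 independent biological replicates in each of 4 groups. The groups were HO15.19 cells (c-myc-/-) with 50 nM rapamycin, HO15.19 cells with DMSO vehicle, TGR-1 cells (c-myc+/+) with 50 nM rapamycin and TGR-1 cells with DMSO vehicle, all for 24 hr. TGR-1 is an immortalized subclone of the rat embryonic fibroblast line Rat-1, and HO15.19 was derived from it by homologous recombination at c-myc. With 1 line of each genotype, the genotype and other differences between the lines cannot be told apart. The labels also give a doubling time of 45 to 60 hr for HO15.19 cells and 18 to 21.5 hr for TGR-1 cells, and the part of growth rate in any line difference was not tested.

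All levels below are log2 signals after background correction and quantile normalization, and a change is a difference between such values. Arrays had a mean raw signal of 255 to 405, 9605 to 10472 probes were detected per array, and arrays of the same group correlated at 0.989 or more. A probe was tested when its detection p-value was under 0.05 on at least 3 arrays, which held for 10852 probes and all 6 members. The threshold for calling a change was an adjusted p under 0.05 in limma (Benjamini-Hochberg), together with an unadjusted p no higher than 0.01 and a difference of 1.2-fold or more. The Myc probe was 1.19 lower in HO15.19 than in TGR-1 cells with DMSO (adjusted p = 5.67e-07 from limma). It was detected on all arrays, at 7.69 to 8.19 in HO15.19 cells and 8.97 to 9.76 in TGR-1 cells, and whether it lies in the inactivated part of the gene was not tested. Of 14 fibroblast markers 4 had a named probe, and Col1a1, Col3a1 and Fn1 were detected on all 12 arrays. The remaining marker, Lum, was detected on 6 arrays. Its mean was 6.77 with rapamycin and 6.19 with DMSO in HO15.19 cells, and 4.55 and 4.58 in TGR-1 cells. Of 6 macrophage markers 1 had a named probe, Cd14, which was also detected on all 12 arrays.

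The promoters of Trib3 and Chac1 are shown because they alone among the 6 matched TGATGNAA in the window searched. TGATGNAA is a form of the composite C/EBP-ATF element that ATF4 is known to bind. The window ran from 250 bases before to 50 bases after the gene start, and sequence outside it was not searched. For each gene the 250 bases before the start of the RefSeq gene in the rat build GRCr8 are given on the gene's strand, with the element in capitals, where it reads as the reverse complement of TGATGNAA. The Trib3 sequence is at chr3:161275534-161275783 on the minus strand and the Chac1 sequence at chr3:126795881-126796130 on the plus strand.
Trib3: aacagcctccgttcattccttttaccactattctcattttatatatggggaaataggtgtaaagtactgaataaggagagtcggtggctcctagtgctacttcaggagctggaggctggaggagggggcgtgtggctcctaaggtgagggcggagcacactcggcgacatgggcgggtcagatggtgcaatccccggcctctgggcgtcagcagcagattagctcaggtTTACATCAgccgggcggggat
Chac1: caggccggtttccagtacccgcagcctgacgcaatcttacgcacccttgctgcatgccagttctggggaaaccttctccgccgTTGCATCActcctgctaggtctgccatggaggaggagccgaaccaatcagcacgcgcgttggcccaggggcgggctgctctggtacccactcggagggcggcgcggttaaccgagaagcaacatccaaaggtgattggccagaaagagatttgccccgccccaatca

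The Trib3 element lay 21 to 14 bases before the gene start and the Chac1 element 167 to 160 bases before it. All 6 members matched a promoter, and TGATGNAA was searched on both strands from 250 bases before to 50 bases after the start. It occurred in 2 of the 6 members and in 3.98% of 33469 rat promoters. The looser form TGANGNAA, which includes the first and was added after the Chac1 sequence had been read, was found in the same 2 genes and in 17.7% of promoters. None of the 6 held the cAMP response element TGACGTCA (1.83% of promoters), the E-box CACGTG to which c-Myc binds (6.42%) or the ER stress element (0.0657%). A match is a description of the letters in this window and not of binding.

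In HO15.19 cells all 6 members were lower with rapamycin, by 1.83-fold for Ddit3 to 3.87-fold for Trib3. In this comparison 2.64% of all tested probes were called lower, and 23.7% of those the authors had listed as changed in this line. The lowest array with DMSO exceeded the highest array with rapamycin for each of the 6 genes, as it did for 10.7% of tested probes. The arrays measured RNA of whole cultures, so that fewer cells expressing a gene and less of its RNA per cell cannot be told apart.

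Among the transcription factors, the Ddit3 signal was 9.17, 8.96 and 9.35 in HO15.19 cells with rapamycin, against 10.02, 10.05 and 10.01 with DMSO. The groups did not overlap, and the DMSO arrays lay within a much narrower range than the rapamycin arrays. Ddit3 fell by 0.87 (limma adjusted p = 0.000226, with a standard error of 0.11). Atf5 was at 8.74, 8.30 and 9.16 with rapamycin, against 9.97, 10.13 and 10.48 with DMSO. It varied the most within groups of the 6 genes, yet the groups lay apart, and it fell by 1.46 (limma adjusted p = 0.000164, standard error 0.18). Creb3l1 was at 7.56, 7.43 and 7.38 with rapamycin, against 9.05, 9.05 and 8.50 with DMSO. The third DMSO array was the lowest of its group but stood well above all 3 rapamycin arrays, and the gene fell by 1.41 (limma adjusted p = 2.83e-05, standard error 0.15).

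Trib3 was at 5.71, 6.17 and 6.26 in HO15.19 cells with rapamycin, against 8.17, 8.05 and 7.78 with DMSO. This was the largest change of the 6, and Trib3 fell by 1.95 (standard error 0.15, 95% interval of the fold 3.13 to 4.78, adjusted p = 7.96e-07 from limma). Chac1 was at 5.06, 5.51 and 5.78 with rapamycin, against 6.51, 6.71 and 6.83 with DMSO. The rapamycin arrays spread more than the DMSO arrays without reaching them, and the gene fell by 1.23 (limma adjusted p = 0.000266, standard error 0.16). Asns was at 5.19, 5.35 and 4.81 with rapamycin, against 6.51, 6.60 and 6.20 with DMSO. The third rapamycin array gave a detection p-value of 0.113 and did not detect Asns, which left 2 of 3 arrays in that group. Asns fell by 1.32 (limma adjusted p = 5.29e-05, standard error 0.15). All 6 calls held when any 1 of the 12 arrays was left out. The methods' t-test called none of the 6 after adjustment (adjusted p of 0.0949 to 0.182), although all 6 had an unadjusted p of at most 0.01 there. It was run here on the background-corrected values and adjusted over 10852 probes. The paper describes such a test for signals quantile normalized in BeadStudio. The run here was therefore not a repeat of the authors' own. That the authors listed all 6 genes for this line is how the members were selected and is not independent evidence. The size of the Chac1 and Asns changes depended on the background correction. Without it the HO15.19 change was -0.67 for Chac1 and -0.67 for Asns, and with an offset of 50 in place of 16 it was -0.81 for each. Both were called in these settings.

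**Figure D1:**
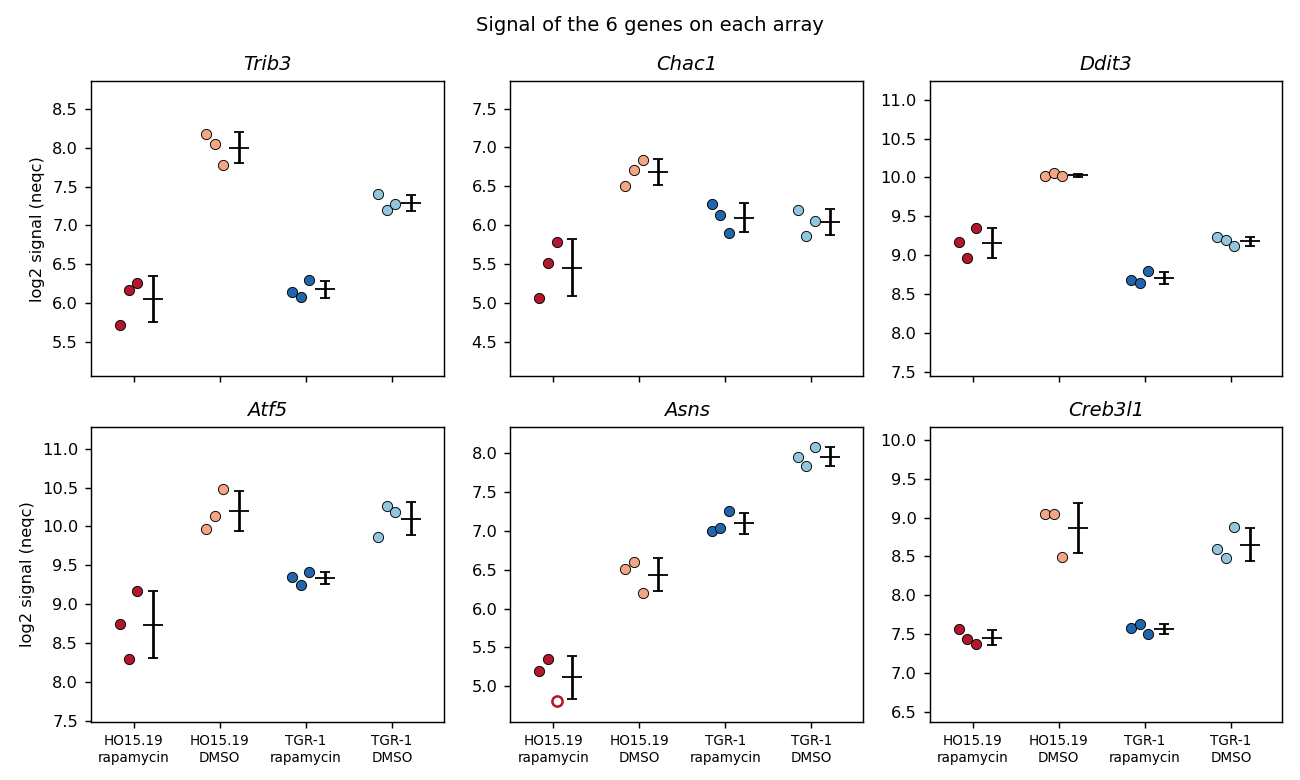
Signal of the 6 genes on each of the 12 arrays. Each panel shows log2 signal for 1 gene, points are arrays, the bar and whiskers are the mean and SD of 3 arrays, and the open point is the HO15.19 rapamycin array on which Asns was not detected. The rapamycin arrays lie below the DMSO arrays of the same line in every panel except for Chac1 in TGR-1 cells.

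In TGR-1 cells rapamycin lowered 5 of the 6 genes, by 1.39-fold for Ddit3 to 2.17-fold for Trib3, while Chac1 showed no change past the threshold. Here 1.45% of all tested probes were called lower, and 14.4% of those the authors had listed for this line. Every rapamycin array lay below every DMSO array for the 5 genes, as for 12.4% of tested probes. The authors listed these 5 genes for this line and did not list Chac1, and such listing was how the members were selected.

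Ddit3 was at 8.68, 8.65 and 8.79 in TGR-1 cells with rapamycin, against 9.23, 9.19 and 9.11 with DMSO. It fell by 0.47 (limma adjusted p = 0.0252, standard error 0.11). Atf5 was at 9.35, 9.25 and 9.41 with rapamycin, against 9.86, 10.26 and 10.18 with DMSO. It fell by 0.76 (limma adjusted p = 0.0248, standard error 0.18). These 2 calls were the least secure of the 5. That of Ddit3 was lost without TGR-1 rapamycin replicate 1 or 2 or DMSO replicate 1 or 2 (adjusted p up to 0.110), and that of Atf5 without any TGR-1 rapamycin replicate or without DMSO replicate 2 or 3 (adjusted p up to 0.116). Creb3l1 was at 7.58, 7.63 and 7.50 with rapamycin, against 8.60, 8.48 and 8.88 with DMSO. The 2 groups were far apart relative to their spread, and Creb3l1 fell by 1.08 (limma adjusted p = 0.000505, standard error 0.15).

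Trib3 was at 6.14, 6.08 and 6.30 in TGR-1 cells with rapamycin, against 7.40, 7.19 and 7.28 with DMSO. It fell by 1.11 (limma adjusted p = 0.000352, standard error 0.15). Asns was at 7.00, 7.04 and 7.25 with rapamycin, against 7.95, 7.83 and 8.08 with DMSO. It fell by 0.86 (limma adjusted p = 0.00314, standard error 0.15) and was detected on all 6 arrays of this line. Chac1 was at 6.27, 6.13 and 5.90 with rapamycin, against 6.19, 5.86 and 6.05 with DMSO. The groups overlapped, with a difference of 0.06 (95% interval -0.29 to 0.41, adjusted p = 0.899 from limma). The interval does not reach the size of the HO15.19 change. With the methods' t-test, Trib3 alone passed the adjusted threshold in TGR-1 cells (adjusted p = 0.0496), and 5 members had an unadjusted p of at most 0.01.

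Averaged over the lines, rapamycin lowered all 6 genes, where 4.75% of tested probes were called lower. The averaged changes were -0.67 for Ddit3, -1.11 for Atf5, -1.25 for Creb3l1, -1.53 for Trib3, -0.59 for Chac1 and -1.09 for Asns. For Chac1 the average joins a change in 1 line with none past the threshold in the other.

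The study asked whether the rapamycin response depends on c-Myc. The comparison made here is the difference between the rapamycin changes of the lines. With 1 line of each genotype it compares lines, and c-Myc cannot be told apart from their other differences. All 6 differences were negative, and that of Chac1 alone passed the threshold. For Chac1 the change in HO15.19 minus that in TGR-1 cells was -1.29 (standard error 0.23, 95% interval -1.78 to -0.80, adjusted p = 0.0436 from limma). In this comparison 0.0829% of tested probes were called lower. Chac1 was listed by the authors in HO15.19 and not in TGR-1 cells, so this difference rests on the values by which the gene was selected and is not independent evidence. Its size also changed with the processing, to -0.71 without background correction, -0.71 with the authors' normalized values and -0.85 with an offset of 50, all called. The call was close to the threshold: it was lost in 11 of the 12 fits that left out 1 array, all except that without HO15.19 rapamycin replicate 3, with values of -1.46 to -1.11 and adjusted p of 0.0111 to 0.133. The unadjusted p stayed between 3.76e-06 and 0.000179 in these fits.

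The other 5 differences did not pass. They were -0.84 for Trib3 (95% interval -1.27 to -0.40, adjusted p = 0.138 from limma), -0.70 for Atf5 (95% interval -1.24 to -0.15, adjusted p = 0.366) and -0.46 for Asns (95% interval -0.90 to -0.02, adjusted p = 0.471). For Ddit3 the difference was -0.40 (95% interval -0.74 to -0.06, adjusted p = 0.416 from limma) and for Creb3l1 -0.33 (95% interval -0.77 to 0.11, adjusted p = 0.653). A larger fall in c-myc null cells was therefore not shown for these genes, nor an equal one. Trib3 passed with the values left without background correction (-0.62, adjusted p = 0.0483) and with the authors' normalized values (-0.63, adjusted p = 0.0485). The size of the Asns difference depended strongly on the setting. Over 24 alternative settings it lay between -0.57 and -0.016 (limma adjusted p of 0.329 to 0.986) and was called in none.

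**Figure D2:**
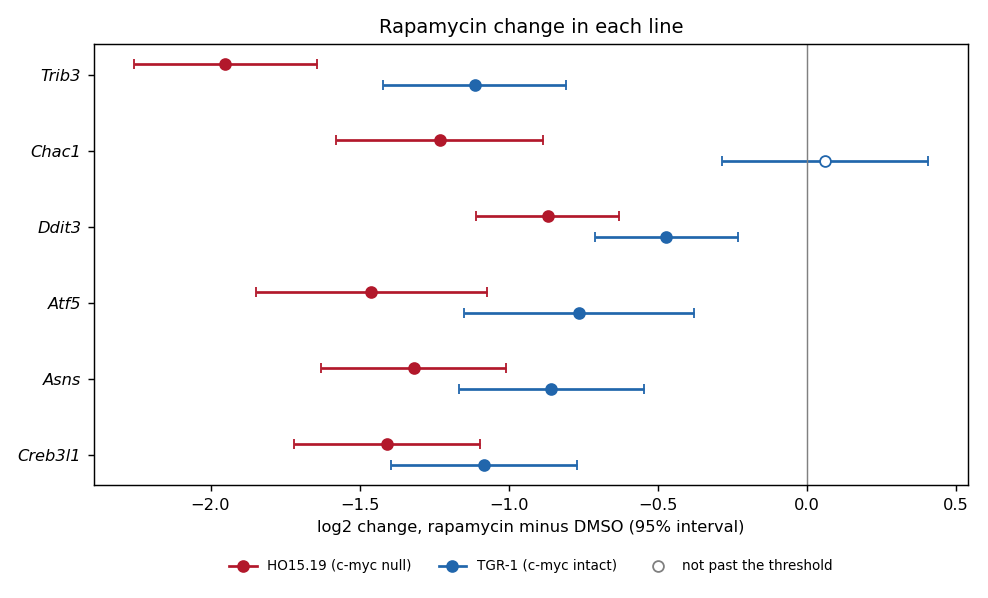
Rapamycin change of the 6 genes in HO15.19 (red) and TGR-1 cells (blue). The x axis is the log2 difference of rapamycin minus DMSO, points are estimates from 3 arrays per group, bars are 95% intervals, and an open point did not pass the threshold. The HO15.19 point lies left of the TGR-1 point for every gene, a difference that passed the threshold for Chac1 alone, and Chac1 in TGR-1 cells is the point at 0.06.

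The lines also differed in the level of these genes without rapamycin, and not in a single direction. With DMSO, Ddit3, Trib3 and Chac1 were higher in the null line, Asns was lower, and Atf5 and Creb3l1 did not pass the threshold. Of all tested probes 15.7% were called higher and 15.7% lower in this comparison, so a call here was common, and the shares were 27.7% and 27.8% among the probes in the authors' tables. The members were selected on rapamycin changes, and the DMSO arrays compared here are also the controls of those changes.

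With DMSO, Ddit3 averaged 10.03 ± 0.02 in HO15.19 cells and 9.18 ± 0.06 in TGR-1 cells (SD, n = 3 each), a difference of 0.85 (adjusted p = 1.80e-05 from limma). Trib3 lay between 7.78 and 8.17 in HO15.19 cells and between 7.19 and 7.40 in TGR-1 cells (n = 3 each), a difference of 0.71 (adjusted p = 0.00103 from limma). Chac1 averaged 6.68 ± 0.16 in HO15.19 cells and 6.03 ± 0.17 in TGR-1 cells (SD, n = 3 each), a difference of 0.65 (adjusted p = 0.00517 from limma). Every HO15.19 array exceeded every TGR-1 array for these 3 genes, as for 22.8% of tested probes. Asns, the amino acid synthesis enzyme among the 6, went the other way. It averaged 6.44 ± 0.21 in HO15.19 cells and 7.95 ± 0.12 in TGR-1 cells (SD, n = 3 each), 2.86-fold lower in the null line without overlap, as for 23.4% of probes (adjusted p = 5.67e-07 from limma). The differences were 0.09 for Atf5 (95% interval -0.29 to 0.48, adjusted p = 0.736 from limma) and 0.21 for Creb3l1 (95% interval -0.10 to 0.52, adjusted p = 0.293), with overlapping groups. Without HO15.19 DMSO replicate 3 the Creb3l1 difference passed (0.39, limma adjusted p = 0.0305).

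With rapamycin in both lines, Ddit3 was higher in HO15.19 cells and Asns, Chac1 and Atf5 were lower, in a comparison where 15.3% of tested probes were called higher and 16.1% lower. Ddit3 averaged 9.16 ± 0.19 in HO15.19 cells and 8.71 ± 0.08 in TGR-1 cells (SD, n = 3 each), a difference of 0.45 (adjusted p = 0.00465 from limma). Asns averaged 5.12 ± 0.28 in HO15.19 cells and 7.10 ± 0.14 in TGR-1 cells (SD, n = 3 each), a difference of -1.98 (adjusted p = 2.08e-08 from limma). Chac1, which was higher in HO15.19 cells with DMSO, was lower there with rapamycin, at 5.45 ± 0.37 in HO15.19 cells and 6.10 ± 0.19 in TGR-1 cells (SD, n = 3 each; difference -0.65, adjusted p = 0.00519 from limma). Atf5 averaged 8.73 ± 0.43 in HO15.19 cells and 9.34 ± 0.08 in TGR-1 cells (SD, n = 3 each; difference -0.60, adjusted p = 0.0158 from limma). The Atf5 call was lost without HO15.19 rapamycin replicate 1 or 2 or TGR-1 rapamycin replicate 1 or 3 (adjusted p up to 0.0948). The differences of Trib3 (-0.13, adjusted p = 0.546 from limma) and Creb3l1 (-0.11, adjusted p = 0.597) did not pass. Among all tested probes, every HO15.19 array was below every TGR-1 array for 22.3% and above for 21.7%. The groups of Trib3 and Creb3l1 overlapped, at 6.05 ± 0.29 for Trib3 in HO15.19 cells and 6.18 ± 0.11 in TGR-1 cells (SD, n = 3 each). With the methods' t-test, Asns alone passed in this comparison (adjusted p = 0.00841), and 2 members had an unadjusted p under 0.05.

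**Figure D3:**
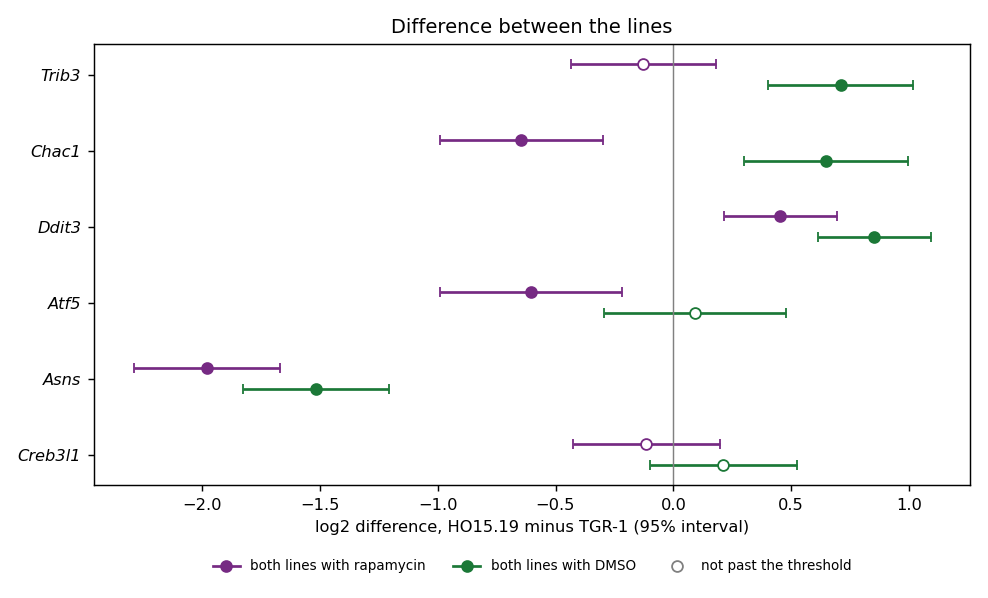
Difference between the lines for the 6 genes, with rapamycin (purple) and with DMSO (green). The x axis is the log2 difference of HO15.19 minus TGR-1, points are estimates from 3 arrays per group, bars are 95% intervals, and an open point did not pass the threshold. Chac1 lies on opposite sides of 0 with rapamycin and with DMSO, while Ddit3 lies above 0 and Asns below 0 in both.

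The order of the 4 groups differed between the genes. Asns had the lowest mean in HO15.19 cells with rapamycin, then HO15.19 cells with DMSO, TGR-1 cells with rapamycin and TGR-1 cells with DMSO, and all neighbours in this order passed the threshold. Ddit3 was lowest in TGR-1 cells with rapamycin and highest in HO15.19 cells with DMSO, and its 2 middle groups, HO15.19 cells with rapamycin and TGR-1 cells with DMSO, could not be separated (difference -0.02, adjusted p = 0.919 from limma). Trib3, Creb3l1 and Atf5 followed the treatment: both rapamycin groups lay below both DMSO groups. For Trib3 the DMSO groups also differed and for Creb3l1 no neighbours within a treatment did. For Atf5 the rapamycin groups also differed, with a lower level in HO15.19 than in TGR-1 cells, while its DMSO groups did not differ past the threshold. Chac1 had both TGR-1 groups in the middle, below HO15.19 cells with DMSO and above HO15.19 cells with rapamycin.

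Other genes of the pathway were counted by lists written with earlier results of these data known, and probe names come from the authors' tables, so each list holds only genes found changed by rapamycin in at least 1 line. Of 54 listed targets of ATF4 in the amino acid response, 35 were named and tested. In HO15.19 cells 29 were lower with rapamycin, none higher and 6 not called, with a median change of -0.78. In TGR-1 cells 19 were lower, none higher and 16 not called, with a median of -0.50. The 19 became 11 without TGR-1 rapamycin replicate 2, and 12 without rapamycin replicate 1 or 3 or without DMSO replicate 2. With the methods' t-test, 1 target was lower in HO15.19 cells and 5 in TGR-1 cells. The medians of all tested probes were 0.00 in both comparisons. By limma 2.64% of tested probes were called lower in HO15.19 cells and 1.45% in TGR-1 cells. Among probes in the authors' table of the same line these shares were 23.7% and 14.4%. Without the members, 24 of 30 were lower in HO15.19 cells (median -0.73) and 15 of 30 in TGR-1 cells (median -0.49). The directions are not independent evidence, since 33 of the 35 were in the authors' HO15.19 table and 24 in their TGR-1 table.

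All 12 named aminoacyl-tRNA synthetases, which charge tRNAs, were lower with rapamycin in HO15.19 cells (changes of -1.35 to -0.51) and 8 of them in TGR-1 cells (changes of all 12 between -0.75 and -0.28). Among them Cars1, the cysteine enzyme, changed by -1.35 in HO15.19 and -0.55 in TGR-1 cells. Of 8 enzymes of amino acid and one-carbon metabolism, Asns among them, 6 were lower in HO15.19 and 4 in TGR-1 cells. Psph, the last enzyme of serine synthesis, changed by -1.14 in HO15.19 cells and -0.93 in TGR-1 cells. Phgdh, the first enzyme of that pathway, was not above background on any HO15.19 rapamycin array. The limma estimate for Phgdh in HO15.19 cells was -2.16 (adjusted p = 2.87e-08) and rests on those signals below background. As a bound, which was not tested, its signal with rapamycin was at least 3.59-fold lower than with DMSO. This bound sets the DMSO mean against, for each rapamycin array, the higher of the lowest detected signal and that of Phgdh itself. In TGR-1 cells Phgdh changed by -1.50. Of 4 amino acid transporters, 3 were lower in HO15.19 and 1 in TGR-1 cells, namely Slc7a5, the light chain of a carrier of large neutral amino acids (-1.63 in HO15.19 cells and -0.62 in TGR-1 cells).

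Between the lines with DMSO most of the same list was lower in the null line, as Asns was, whereas Ddit3, Trib3 and Chac1 were higher. Of the 35 genes 24 were lower in HO15.19 than in TGR-1 cells and 4 were higher, with a median of -0.57 against -0.01 over all tested probes. In this comparison 15.7% of tested probes were called lower and 15.7% higher, and 27.8% and 27.7% of those in the authors' tables. The 4 higher genes were Ddit3, Trib3, Chac1 and Ppp1r15a, a phosphatase subunit that reverses eIF2alpha phosphorylation (0.42, adjusted p = 0.0124 from limma). The grouping of the list into kinds of genes was made after these values were seen. In it, all 8 metabolic enzymes and 11 of the 12 synthetases were lower in HO15.19 cells, while of the 9 stress regulators and effectors 4 were higher and 1 was lower. Those 4 include the members Ddit3, Trib3 and Chac1. Without the members, 23 of 30 listed genes were lower in HO15.19 cells with DMSO and 1 was higher (median -0.72). With rapamycin in both lines, 29 of the 35 were lower in HO15.19 cells and 3 higher (median -0.87). There 16.1% of tested probes were called lower and 15.3% higher, and 30.6% and 25.7% of those in the authors' tables.

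**Figure D4:**
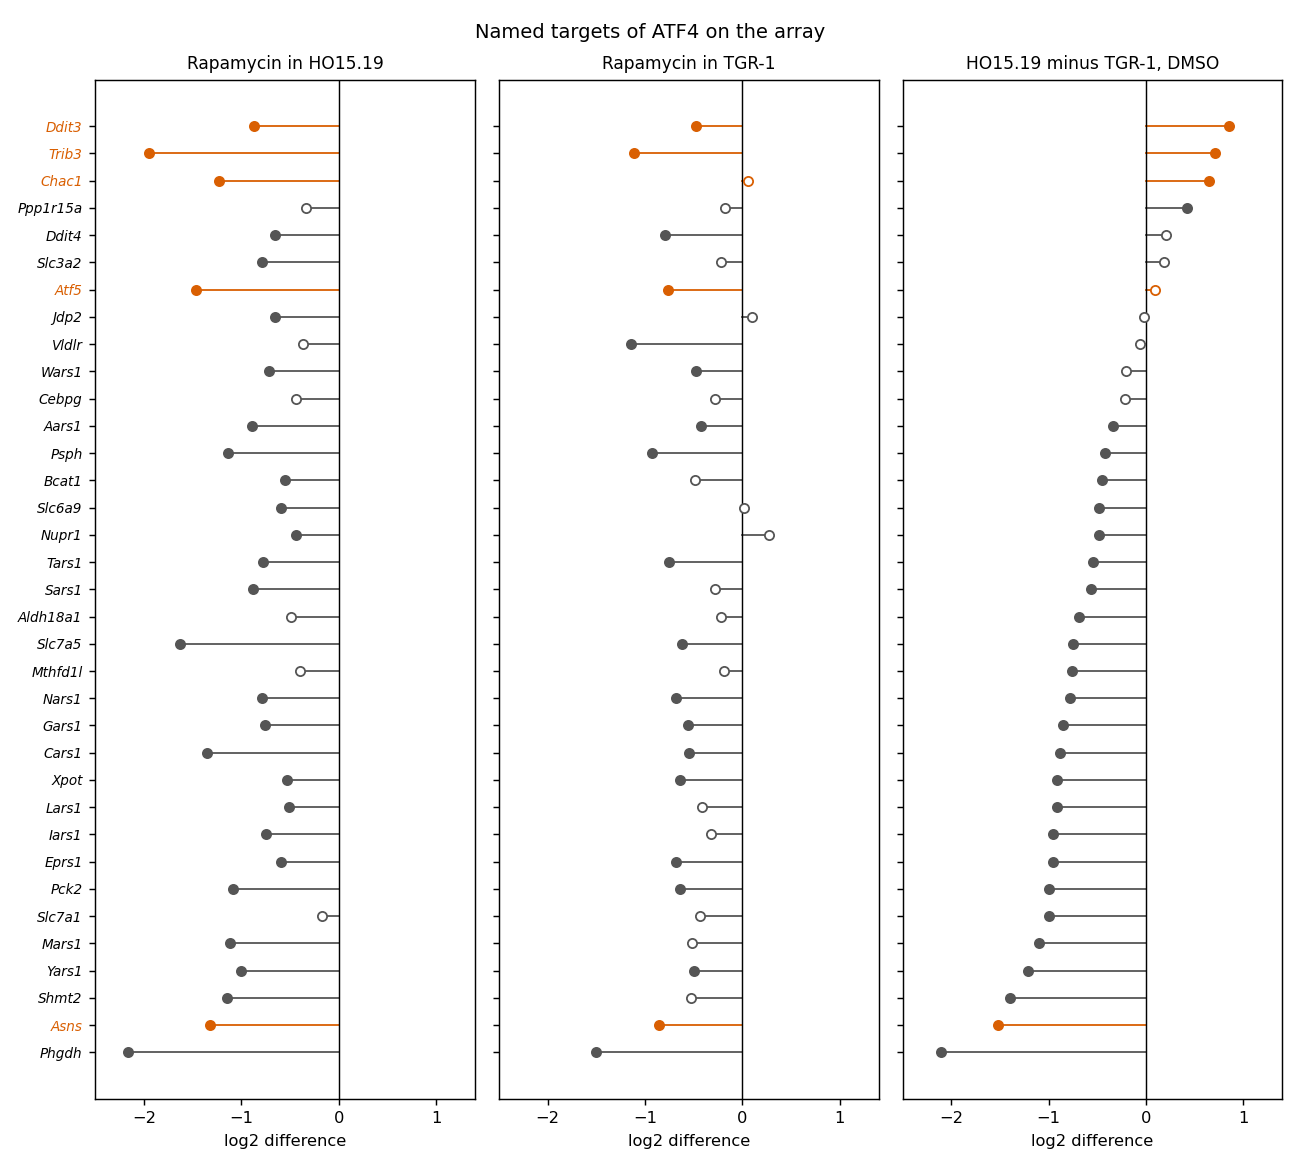
Changes of the 35 named ATF4 targets, ordered by the difference between the lines with DMSO. The panels show the log2 difference for rapamycin in HO15.19 cells, rapamycin in TGR-1 cells and HO15.19 minus TGR-1 with DMSO, filled points passed the threshold, and orange marks 5 of the 6 genes (Creb3l1 is not on this list). In the panel of the lines most points lie left of 0 and those of Ddit3, Trib3 and Chac1 lie furthest right. The Phgdh point in the HO15.19 panel rests on signals below background with rapamycin.

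Atf4 itself was at 10.09, 9.76 and 10.17 in HO15.19 cells with rapamycin, against 10.60, 10.65 and 10.83 with DMSO. It fell by 0.69 (limma adjusted p = 0.00438, standard error 0.13). In TGR-1 cells Atf4 was at 10.90, 10.81 and 11.08 with rapamycin, against 10.85, 11.10 and 11.04 with DMSO. These groups overlapped (difference -0.06, adjusted p = 0.866 from limma), and the difference between the changes of the lines did not pass (-0.62, adjusted p = 0.239). These values are of RNA, whereas ATF4 is controlled to a large part in translation.

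Of 18 listed kinases and factors of the eIF2alpha arm, 10 were named, of which 3 were lower and none higher in HO15.19 cells with rapamycin. These were Atf4, Eif2s2, the beta subunit of eIF2 (-0.58), and Dnajc3, an inhibitor of eIF2alpha kinases (-0.44). In this line 7 of the 10 changes were negative. Among those not called, Eif2ak1, an eIF2alpha kinase, had a change of 0.40 (limma adjusted p = 0.0906). Of the 10 genes 8 were in the authors' HO15.19 table, of whose probes 23.7% were called lower. None of the 10 was called in TGR-1 cells by limma, where 5 had an unadjusted p under 0.05. In the ATF6 and XBP1 arm, which raises ER chaperones, 8 of 31 listed genes were named, of which 3 were lower and 5 not called in HO15.19 cells, and 1 was lower and 7 not called in TGR-1 cells. There Hspa5, the chaperone BiP, was lower in both lines (-0.43 in HO15.19 and -0.50 in TGR-1 cells), and P4hb, a disulfide isomerase, and Dnajc3 passed in HO15.19 cells and not in TGR-1 cells (P4hb -0.48 in HO15.19 and -0.08 in TGR-1 cells, with no called difference between the lines). Among those not called, Dnajb9, an ER co-chaperone, had a change of 0.40 in HO15.19 cells (limma adjusted p = 0.140) and Pdia6, a disulfide isomerase, one of 0.29 in TGR-1 cells (adjusted p = 0.160). Of the 8 genes of this arm, 6 were in the authors' HO15.19 table and 5 in their TGR-1 table. The shares of all probes in these tables called lower in the same line were 23.7% and 14.4%.

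Of 18 listed partners and targets of CHOP, 5 were named: Atf4, Cebpg, Ppp1r15a, Trib3 and Chac1. In HO15.19 cells 3 of them were lower with rapamycin, namely Atf4, Trib3 and Chac1, and in TGR-1 cells Trib3 alone passed. All 5 were in the authors' HO15.19 table, of whose probes 23.7% were called lower in that line. In their TGR-1 table was 1 of the 5, and 14.4% of its probes were called lower in that line. Cebpg, a C/EBP partner of ATF4, changed by -0.44 in HO15.19 and -0.28 in TGR-1 cells, neither past the threshold. Of 24 listed collagen and secretory targets of CREB3L1, 4 were named, of which 1 was lower and 3 not called in each line. Of these 4 genes, 3 were in the authors' HO15.19 table and 2 in their TGR-1 table. Col1a1, the main chain of type I collagen, was lower with rapamycin in both lines (-0.42 in HO15.19 and -0.49 in TGR-1 cells). Fn1, fibronectin, had a change of 0.40 in TGR-1 cells (limma adjusted p = 0.0941) and 0.09 in HO15.19 cells. The CREB3L1 list was not lower in HO15.19 cells with DMSO, where 2 of the 4 were called higher. The share called higher there was 27.7% among all probes in the authors' tables.

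The 6 genes varied together over the 12 arrays only in part. Pearson's r between their profiles lay between -0.19, for Ddit3 with Asns, and 0.94, for Trib3 with Creb3l1, with a median of 0.64 over 15 pairs. The points share the 4 groups, so these values largely repeat the group means. After subtraction of the group means r lay between -0.73, for Atf5 with Asns, and 0.66, for Ddit3 with Atf5, with a median of 0.15, and 8 of 15 pairs were above 0.

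Among the 1709 named genes tested, the members left out, those most like the mean standardized profile of the 6 were LOC361841 (Pearson's r 0.963 over 12 arrays), Col12a1 (0.953), Nsl1 (0.944), Ndufb9 (0.935) and Tpi1 (0.918). All named genes come from the authors' tables of genes changed by rapamycin. The arrays again share the 4 groups, so values of r here largely repeat the group means. Col12a1 encodes a fibril-associated collagen, Nsl1 a kinetochore protein, Ndufb9 a subunit of respiratory complex I and Tpi1 triosephosphate isomerase of glycolysis. Taken gene by gene, Asns was nearest to Phgdh (0.990), which was not above background on the HO15.19 rapamycin arrays, and Ifrd2 (0.986). Trib3 was nearest to Nsl1 (0.958) and Casp4, an inflammatory caspase (0.951), and Ddit3 to Cox6a2, a subunit of cytochrome c oxidase (0.975), and Actr2, an actin nucleator (0.965). Atf5 was nearest to the Gapdh pseudogene Gapdh-ps118 (0.960), which may share signal with Gapdh, and to Pgk1, a glycolytic kinase (0.926). Chac1 was nearest to Tmem161b (0.900) and the actin-binding Pfn1 (0.882), and Creb3l1 to the peptidase Cndp2 (0.952) and Hspa5 (0.944).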

How the data were processed

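RNA from 12 cultures was hybridized to Illumina RatRef-12 arrays. The signal intensities deposited by the authors were BeadStudio values before normalization between arrays, accompanied by deposited p-values for detection, which compare a probe with the negative controls. A further deposited table held intensities after quantile normalization in BeadStudio. The tables of the authors' comparisons, made in Partek 6.3, hold a deposited signed fold change (a score), adjusted p-values and group means, of which only the gene names were used (984 probes for TGR-1, 1143 for HO15.19). Symbols were updated through Entrez identifiers for 1551 of 1734 probes. Per probe, neqc of limma 3.58.1 (R 4.3.3) removed background estimated through those detection values, applied quantile normalization and took log2 after adding 16. A mean per group was fitted over all 12 arrays with lmFit and eBayes (8 residual and 8.72 prior degrees of freedom), two-sided, and p-values were adjusted over 10852 probes (48.2%). The threshold followed the methods of the study.

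The text names the 6 members, up to 4 called genes per pathway list with the largest averaged rapamycin change, the 5 genes most like the mean member profile, the 2 most like each member, and Myc; other genes named were chosen after their values were seen. Genes with several probes were taken at the brightest. The members, lists and tests were chosen with earlier results of these data known. The fit was tested on simulated data. Alternatives covered the probe filter, background correction, offset, centring, variance model, array weights, test, threshold, replicate number as a block, and omission of single arrays. No file names chip or position, so these were not used as a batch.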

Additional observations from a re-analysis of the deposited data

Results flagged for a closer look

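The test of the difference between the rapamycin changes of the lines passed the threshold for Chac1. Chac1 was listed by the authors in HO15.19 cells and not in TGR-1 cells, so the test reuses values that selected it and is not independent evidence. The change was -1.23 in HO15.19 cells and 0.06 in TGR-1 cells, a difference of -1.29 on the log2 scale (adjusted p = 0.0436 from limma). All 3 HO15.19 rapamycin arrays were below all 3 HO15.19 DMSO arrays, while the TGR-1 groups overlapped, and the call was kept in 11 of 24 alternative settings.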

How the results depend on the processing

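In 26 alternative settings the direction of the member changes reversed in 6 of 912 values, none of a called change. The DMSO difference between the lines of Atf5 was -0.051 with arrays centred on the median of tested probes, -0.050 without HO15.19 DMSO replicate 3 and -0.026 without TGR-1 DMSO replicate 1, and up to 0.21 with another array left out. The rapamycin difference between the lines of Trib3 was 0.040 without HO15.19 rapamycin replicate 1. The TGR-1 change of Chac1 was -0.024 without TGR-1 rapamycin replicate 1, -0.027 without TGR-1 DMSO replicate 2 and up to 0.16 with another array left out. Between the changes of the lines the count of members called was 0 with no probe filter and 0 with centring, but 2 without background correction, 2 with the authors' normalized values and 2 without the adjusted p; it was 0 to 1 with 1 array left out. With the methods' t-test it was 0 for rapamycin in HO15.19, 1 for rapamycin in TGR-1 and 1 between the lines with rapamycin. Leaving out 1 array gave 3 to 5 in TGR-1 cells, with 3 without TGR-1 rapamycin replicate 1 or 2 or DMSO replicate 2, and between the lines 4 to 5 with DMSO and 3 to 4 with rapamycin. Without background correction some log2 differences of Chac1, Asns and Trib3 were over 1.5 times smaller, among them 0.39 and -0.32 for the Chac1 difference between the lines with DMSO and with rapamycin, -1.11 for that of Asns with rapamycin, and -0.73 for Trib3 with rapamycin in TGR-1 cells, all called. The averaged rapamycin change was called for all 6 in 24 settings. The causes were not tested.

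Same-numbered arrays did not deviate together (r of -0.23 to 0.28 over 18 pairs, 6 over 0.1; 5 of 12 arrays were closest to their own number), so the numbers were not taken as pairing. With the replicate block all 36 member calls were as without it, 6 of 6 genes being lower in HO15.19 and 5 in TGR-1 cells, and the Chac1 difference was -1.29 (adjusted p = 0.0476 from limma).

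Over all probes, 558 were called for rapamycin in HO15.19 cells and 13 to 986 in the alternatives, 430 and 58 to 864 in TGR-1 cells, 12 and 0 to 336 for the difference of the changes, 3408 and 1864 to 3783 between the lines with DMSO, and 3400 and 1916 to 3775 with rapamycin. ATF4 targets lower were 29 and 1 to 32 in HO15.19 cells, and 19 and 5 to 24 in TGR-1 cells. The 3 arrays per group limit precision.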
